A study of Danio rerio with 18 samples.

Results

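Heat shock and chaperone genes were taken as every gene whose symbol begins with hsp or dnaj in the abundance tables for 45 h and 4 days after fertilization (hpf and dpf) of whole sox10 mutant and wild-type zebrafish. The rule gave 89 genes of the 25581 listed, 38 with hsp symbols and 51 with dnaj symbols. By symbol they were 19 Hsp70 and Hsp110 genes, 4 Hsp90 genes, 10 small Hsp genes, the 2 subunits of the mitochondrial chaperonin, 5 DnaJA, 14 DnaJB and 32 DnaJC genes and 3 others. These 3 are hspbp1 (a nucleotide exchange factor of Hsp70), hspbap1 and hspg2, which encodes the basement membrane proteoglycan perlecan and is no chaperone. The question asked of them was whether transcripts that mark protein stress differed with genotype or stage, and how far single libraries departed from their group.

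The homozygous sox10 mutants carried the ci3020 allele, a deletion of part of the 5′ leader and of the first coding exon, and the wild types were their siblings or cousins. Groups were sox10 mutants and wild types at 45 hpf (pools of 10 to 15 mutants or 10 to 25 wild types) and the same genotypes at 4 dpf (pools of 10 to 12 mutants or 10 to 15 wild types), with 3 libraries per group, each from a separate pool. Values are transcript abundances (TPM), scaled for transcript length within each library, and the number of reads behind them is unknown. The table deposited for 7 dpf repeats the 4 dpf table in all 25896 lines, so the values are called here those of the 4 dpf table, the stage at which they were measured is not known beyond that label, and 12 distinct libraries were analysed. Because whole bodies were pooled, fewer cells of a type and less RNA per cell cannot be told apart.

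Chaperones hold unfolded proteins and help them fold. Hsp70 proteins bind and release short hydrophobic stretches, DnaJ proteins (Hsp40) bring them clients and trigger ATP hydrolysis, Hsp110 proteins exchange the nucleotide, Hsp90 finishes many signalling proteins, small Hsps keep denatured proteins soluble, and the chaperonin folds proteins inside a closed chamber. Some members are made at all times, whereas others are switched on by heat shock factor when unfolded proteins build up, and separate sets serve the cytosol, the endoplasmic reticulum (ER) and the mitochondrion.

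Summed over the 89 genes, 3246, 3385 and 3352 TPM were listed in sox10 mutants of the 4 dpf table (replicates 1, 2 and 3, the order used throughout), against 4165, 3993 and 3912 TPM in wild types. At 45 hpf the sums were 5832, 6201 and 4727 TPM in mutants and 5853, 6137 and 6141 TPM in wild types. The mutant sums lay below all wild-type sums in the 4 dpf table and overlapped them at 45 hpf. That order depended on the scaling: with the libraries of each table divided by median-of-ratios factors, which measure how the bulk of genes is scaled in a library, the sums in the 4 dpf table overlapped, at 4621, 3439 and 3630 in mutants and 3346, 3728 and 3252 in wild types. The constitutive cytosolic genes hspa8 (Hsc70) and hsp90ab1 (Hsp90 beta) made up 63.5% to 71.8% of these sums. Levels of hspa8 were 1788, 1543 and 1762 TPM in mutants and 1657, 1934 and 1447 TPM in wild types of the 4 dpf table, and 2079.8, 2647 and 1968 TPM in mutants and 2105, 1940.5 and 2126 TPM in wild types at 45 hpf, with overlapping genotypes in both tables. The next most abundant by their mean over the 12 libraries were dnaja2b, a cytosolic partner of Hsp70, dnajc8, a spliceosome-associated DnaJ protein, and hspe1, the Hsp10 subunit of the chaperonin, each between 43.0 and 247 TPM over all libraries. At the other end, hspa12a.2 and hspa12a.3 stayed at or below 1.18 TPM and were listed at 0 in some libraries.

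The stress-inducible Hsp70 genes were high in a single library. In mutant replicate 1 of the 4 dpf table, hsp70l (ENSDARG00000055723), the gene whose heat-driven promoter is widely used in zebrafish, stood at 43.8 TPM, against 4.75 and 2.60 TPM in the other mutants and 1.61, 4.33 and 4.47 TPM in wild types. That was 9.23-fold over the highest of the other 5 libraries of the table. Its close relatives hsp70.1 (ENSDARG00000029688), hsp70.2 (ENSDARG00000092362) and hsp70.3 (ENSDARG00000021924) showed the same library on top, 6.83-fold, 5.16-fold and 11.2-fold over the highest of the other 5. For hsp70.1 the values were 16.3, 2.08 and 1.42 TPM in mutants and 2.19, 1.86 and 2.38 TPM in wild types. For hsp70.2 they were 27.4, 5.32 and 3.48 TPM in mutants and 5.23, 4.45 and 4.37 TPM in wild types, and for hsp70.3 they were 21.4, 1.90 and 1.71 TPM in mutants and 1.74, 1.60 and 1.70 TPM in wild types. For each of the 4 genes mutant replicates 2 and 3 lay inside the wild-type range or within 1 TPM of it.

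These 4 genes are close copies, and in RefSeq gene order (assembly GRCz12tu) hsp70.1, hsp70.2 and hsp70.3 are adjacent protein-coding genes. The share of reads given to each copy is therefore uncertain, and 1 identifier is listed as both hsp70.1 and hsp70.2 in the tables and is called hsp70.2 here. Their sum does not depend on that split. It was 109, 14.1 and 9.21 TPM in mutants and 10.8, 12.2 and 12.9 TPM in wild types of the 4 dpf table, and 26.2, 32.9 and 17.2 TPM in mutants and 29.6, 27.9 and 18.3 TPM in wild types at 45 hpf, where the genotypes overlapped. The library that was high in the 4 dpf table thus also exceeded every library of the 45 hpf table.

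**Figure D1:**
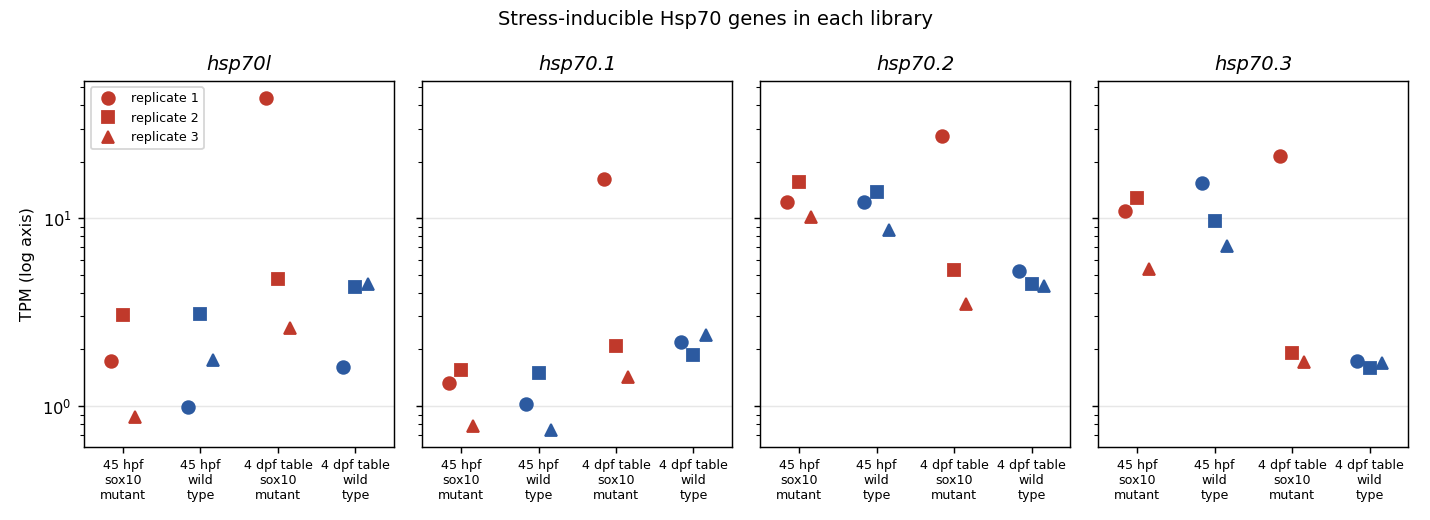
TPM (log axis) of hsp70l, hsp70.1, hsp70.2 and hsp70.3 in the 12 libraries, with sox10 mutants in red and wild types in blue and a marker shape for each replicate number. Mutant replicate 1 of the 4 dpf table is the highest of the 12 libraries in each panel, whereas its 2 companion mutant libraries sit near the wild types.

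Few other genes behaved this way in that library. At least 4-fold above both other mutant libraries on the TPM + 1 scale were 8 of 17291 tested genes (0.0463%), of which 4 were the inducible Hsp70 genes. The other 4, named after their values were seen, were the immediate-early genes fosab and npas4a and 2 genes without a symbol. Of these, fosab also stood this far above its group in mutant replicate 2 at 45 hpf, where no hsp or dnaj gene did. In the other 11 libraries, and in the downward direction in all 12, a single further hsp or dnaj gene departed this far, hspb9, which was low in wild-type replicate 1 at 45 hpf.

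Other genes that heat shock factor switches on showed no comparable excess in TPM as deposited. In mutant replicate 1 of the 4 dpf table, hsph1, an Hsp110 exchange factor, and hsp90aa1.2, a cytosolic Hsp90 alpha, were the highest of the 6 libraries by a narrow margin, at 5.78 and 58.3 TPM, against 5.25 and 53.9 TPM in the next library. In TPM as deposited the DnaJ partner genes of inducible Hsp70 ranked low in the same library. For dnajb1a the values were 2.79, 3.63 and 3.12 TPM in mutants and 5.04, 3.82 and 6.81 TPM in wild types, with replicate 1 the lowest of 6, and for dnajb1b they were 4.17, 4.75 and 2.42 TPM in mutants and 5.97, 6.19 and 7.96 TPM in wild types, with replicate 1 the fifth of 6. Likewise hspb1 (Hsp27) gave 9.77, 13.4 and 12.4 TPM in mutants and 12.0, 10.8 and 11.4 TPM in wild types, and bag3, a cochaperone that links Hsp70 to small Hsps, gave 2.56, 3.82 and 2.73 TPM in mutants and 7.23, 6.14 and 7.52 TPM in wild types. In TPM as deposited both were lowest of 6 in mutant replicate 1. The ER chaperone hspa5 (BiP), the usual reporter of unfolded protein in the ER, was 32.1, 30.3 and 30.0 TPM in mutants and 32.3, 25.0 and 31.4 TPM in wild types.

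That library also stood apart in composition. Median-of-ratios factors taken over both tables were 0.626 for it and 0.783 to 1.35 for the other 11, and after division by these factors the excess of hsp70l over the highest of the other 5 libraries was 13.2-fold. After the same rescaling the excess was 2.01-fold for hsp90aa1.2, 1.45-fold for hsph1, 1.41-fold for hspa5 and 1.34-fold for hspa8, and hspb1, lowest of 6 as deposited, was the highest by 1.04-fold. Rescaled dnajb1b was 6.67 in that library, against 2.93 to 6.71 in the other 5, and dnajb1a was 4.45, against 3.79 to 5.75. Rescaled bag3 was 4.10, against 3.31 to 6.34, so dnajb1a, dnajb1b and bag3 were not the lowest of 6 there. Whether that composition has a part in the Hsp70 values was not tested.

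As group differences, none of the 4 inducible Hsp70 genes passed the test between genotypes (limma on log2(TPM + 1), Benjamini-Hochberg adjustment over all tested genes). In the 4 dpf table the log2 fold change of sox10 mutants over wild types was 1.202 ± 0.88 (SE) for hsp70l, 0.69 ± 0.68 for hsp70.1, 0.71 ± 0.63 for hsp70.2 and 1.07 ± 0.76 for hsp70.3, with adjusted P from 0.307 to 0.458. Without mutant replicate 1 these changes were 0.10, -0.20, -0.09 and 0.07 in the same order of genes. The mean difference between genotypes was thus carried by 1 pool of larvae.

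**Figure D2:**
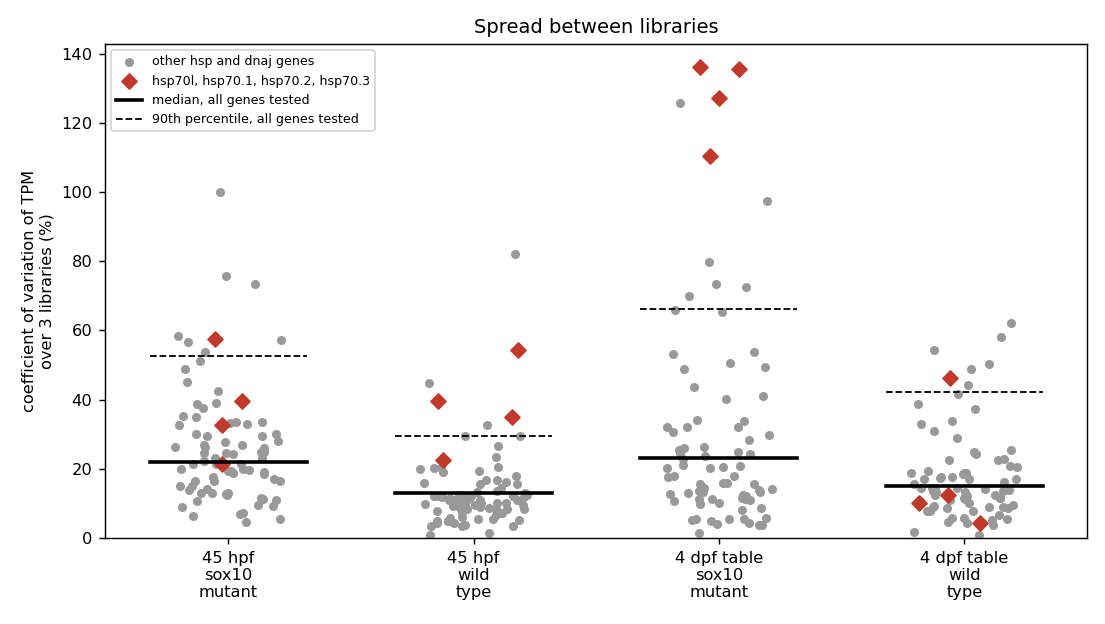
Coefficient of variation of TPM over the 3 libraries of each group (%), for each hsp or dnaj gene that passed the expression filter, with the median and the 90th percentile of all tested genes as lines. The 4 inducible Hsp70 genes (diamonds) reach 110.4% to 136% in sox10 mutants of the 4 dpf table and lie lower in wild types of that table. Of these genes, hsp70l also lies above the 90th percentile in those wild types and in both genotypes at 45 hpf. So do hsp70.1 and hsp70.3 in wild types at 45 hpf.

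Over all members the spread between libraries was close to that of all genes. The median coefficient of variation (the SD over the mean of 3 libraries) was 20.2% over the 79 members tested in mutants of the 4 dpf table, against 23.2% over all genes tested there, and 14.1% in wild types, against 15.1%. At 45 hpf it was 23.1% in mutants, against 22% over all genes, and 11.2% in wild types, against 13.1%. Members above the 90th percentile of all genes numbered 10 of 79 in mutants and 7 of 79 in wild types of the 4 dpf table, and 8 of 81 in mutants and 7 of 81 in wild types at 45 hpf. The medians were higher in mutants than in wild types for the members and for all genes alike, with no test of that difference.

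Besides the inducible Hsp70 genes, the members with the greatest spread were dnajb9a, hspa12a, hspb9, dnajc5aa, hspb3 and dnajc5b. The ER gene dnajb9a, whose protein (ERdj4) keeps the stress sensor Ire1 in check, had 0.0450, 2.04 and 0.439 TPM in mutants and 3.06, 1.14 and 3.64 TPM in wild types of the 4 dpf table. The small Hsp gene hspb9 had 15.6, 17.0 and 4.19 TPM in mutants and 0.681, 9.49 and 12.9 TPM in wild types at 45 hpf, so that wild-type replicate 1 stood far below the others of its group. The muscle small Hsp gene hspb3 had 3.68, 1.37 and 0.878 TPM in mutants and 4.13, 4.54 and 3.62 TPM in wild types at 45 hpf. In all of these the genotypes overlapped. For dnajc5b, a relative of the synaptic DnaJ proteins, the 4 dpf table listed 0.214, 1.29 and 0.693 TPM in mutants and 1.80, 1.80 and 1.63 TPM in wild types, without overlap. The atypical Hsp70 gene hspa12a had 1.35, 0.319 and 0.216 TPM in mutants and 1.30, 1.86 and 1.42 TPM in wild types at 45 hpf, where mutant replicate 1 reached the wild-type range.

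Genotype was compared next. At 45 hpf 81 of the 89 genes reached 1 TPM in 3 or more of the 6 libraries, and by limma none was called lower or higher in sox10 mutants, where a call needed an adjusted P of 0.05 or less and the minimum fold change of the methods. Of all 17043 genes tested, 0.499% were called lower and 0.0587% higher, and at an unadjusted P below 0.05 the members numbered 19 lower and 0 higher, against 20.2% and 0.980% of all genes. Negative changes predominated, in 71 of 81 members, and the median log2 fold change was -0.24 for the members, against -0.25 for all genes. When libraries were rescaled by median-of-ratios factors both medians were near 0 (0.01 for members and 0.00 for all genes), 0.456% of all genes were called lower and 0.148% higher, and again no member was called (10 lower and 2 higher at an unadjusted P below 0.05, against 11.9% and 11.7% of all genes). Mutants lay wholly below wild types for 20 of the 81 members (23.7% of all genes), and wholly above them for 0 (1.94% of all genes).

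Among the lowest P values at 45 hpf were those of hsp90aa1.1, hspa5 and hspa9. The gene hsp90aa1.1, whose product folds myosin in zebrafish skeletal muscle, had 17.2, 15.2 and 8.60 TPM in mutants and 25.1, 23.1 and 23.3 TPM in wild types, without overlap, at a log2 fold change of -0.81 ± 0.23 (SE) and an adjusted P of 0.137 in limma. ER hspa5 had 129.7, 112 and 69.9 TPM in mutants and 147, 168 and 145 TPM in wild types, and mitochondrial Hsp70, hspa9, had 40.5, 33.9 and 24.5 TPM in mutants and 54.9, 48.1 and 43.5 TPM in wild types. In both the genotypes were separate and mutant replicate 3 was lowest, at log2 fold changes of -0.60 and -0.58, which shrank to -0.30 and -0.28 with rescaled libraries. Both subunits of the mitochondrial chaperonin followed the same pattern. For hspd1 (Hsp60) the values were 66.6, 64.6 and 38.4 TPM in mutants and 88.7, 81.4 and 74.6 TPM in wild types, and for hspe1 (Hsp10) they were 171, 183 and 112 TPM in mutants and 247, 214 and 198 TPM in wild types, again separate. Muscle markers, 0 of 8 of which were called, summed to 12451, 8408 and 5486 TPM in mutants and 11801, 13235 and 15096 TPM in wild types at 45 hpf, overlapping and likewise lowest in mutant replicate 3, and their part in these values was not tested. Leaving out mutant replicate 1 gave 25 members called lower at 45 hpf, when 31.6% of all genes were called in either direction.

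For the 4 dpf table, 79 members were tested and 10 were called lower in sox10 mutants, with none higher. That is 12.7% of the members tested, against 18.8% of all 17291 genes called lower and 1.56% called higher. These shares were not tested against each other. Leaving aside genes that reached 1 TPM in the libraries of 1 genotype alone (dnajb9b and hspa12a among the members), 8 of 77 members were called lower, against 17.3% of 16729 genes. Members with an unadjusted P below 0.05 numbered 27 lower and 3 higher, against 38.2% and 4.45% of all genes. The median log2 fold change was -0.24 for the members and -0.33 for all genes. With rescaled libraries the medians were 0.13 and 0.03, 0.157% of all genes were called lower and 0.0817% higher, and limma called no member in either direction (10 lower and 17 higher at an unadjusted P below 0.05, against 20.6% and 19.4% of all genes). Mutants lay wholly below wild types for 30 of the 79 members (42.8% of all genes) and wholly above for 5 (5.96% of all genes). The calls depended on which libraries entered: without mutant replicate 2 there were 26 (23 lower and 3 higher, with 36.1% of all genes called), without wild-type replicate 2 there were 8, and without any other single library there were 0. They were also 0 with a pseudocount of 0.1 or with no filter, and quantile normalization gave 5 lower and 5 higher. The share of all genes called is not given here for quantile normalization or without wild-type replicate 2. Those counts are therefore no result about the members. Of the 10 genes called in the main fit, the 9 still tested with rescaled libraries had log2 fold changes of -2.13 (hspb9) to -0.18 (dnajc7) there.

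**Figure D3:**
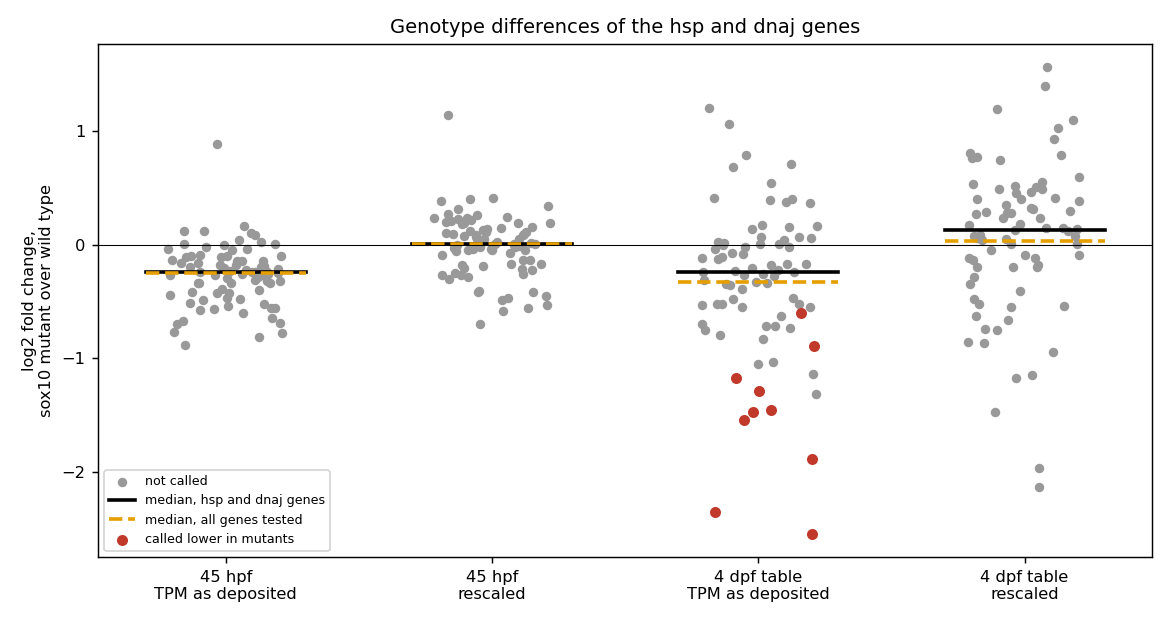
Log2 fold change of sox10 mutants over wild types for each hsp or dnaj gene tested, in the 45 hpf and 4 dpf tables, with TPM as deposited and after median-of-ratios rescaling. Solid lines are medians of the members and dashed lines medians of all tested genes. The 10 genes called lower (red) appear only in the 4 dpf table as deposited.

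A small Hsp gene gave the largest of these differences. For hspb9 (ENSDARG00000078674) the 4 dpf table listed 5.69, 14.6 and 20.0 TPM in mutants, against 118, 47.2 and 75.8 TPM in wild types. The related gene hspb9l (ENSDARG00000002204) had 7.49, 14.3 and 15.1 TPM in mutants and 68.3, 27.6 and 52.4 TPM in wild types. In both genes replicate 1 was the lowest mutant library and the highest wild-type library, and the highest mutant value lay below the lowest wild-type value. Log2 fold changes were -2.55 ± 0.48 (SE) for hspb9 and -1.89 ± 0.38 for hspb9l, with an adjusted P of 0.0431 for each in limma. How reads were divided between these relatives is uncertain, and both moved the same way. Another small Hsp gene, hspb8 (ENSDARG00000058365), whose product works with Bag3 in removing damaged proteins from muscle, had 0.973, 2.93 and 2.13 TPM in mutants and 9.04, 4.21 and 8.90 TPM in wild types (log2 fold change -1.47 ± 0.35, adjusted P 0.0431 in limma). The gene bag3 itself was also called lower, at a log2 fold change of -0.99.

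The other 7 small Hsp genes were not called. Muscle and heart genes hspb2, hspb3 and hspb7 had mutant values of 1.41, 7.39 and 4.02 TPM, 0.367, 2.20 and 1.99 TPM and 0.933, 2.76 and 0.814 TPM, against wild-type values of 8.16, 5.71 and 6.87 TPM, 3.65, 2.26 and 3.46 TPM and 3.99, 2.13 and 3.76 TPM. In all of these mutant replicate 2 was the highest mutant library, and only hspb3 was separate between genotypes. For hspb6 (Hsp20) the table listed 3.97, 9.72 and 7.52 TPM in mutants and 18.4, 6.41 and 8.41 TPM in wild types. Genotypes overlapped for hspb6, for hspb11, with 6.91, 8.37 and 7.03 TPM in mutants and 7.71, 8.55 and 7.36 TPM in wild types, and for hspb15, with 24.4, 23.6 and 28.4 TPM in mutants and 30.6, 24.7 and 23.6 TPM in wild types.

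Among DnaJ genes the largest difference was in dnajc5aa (ENSDARG00000042948), which encodes a cysteine string protein that guards exocytosis at synapses. It had 3.54, 9.70 and 2.04 TPM in mutants and 30.6, 12.7 and 44.3 TPM in wild types of the 4 dpf table (log2 fold change -2.35 ± 0.56, SE, adjusted P 0.0431 in limma), with the highest mutant close to the lowest wild type. Its paralog dnajc5ab had 27.4, 27.9 and 29.5 TPM in mutants and 34.5, 36.1 and 37.8 TPM in wild types and was not called, though separate. The clathrin-uncoating gene dnajc6 (auxilin), also of nerve endings, had 11.9, 12.4 and 13.1 TPM in mutants and 14.5, 13.6 and 14.5 TPM in wild types and was not called either.

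Genes for cytosolic DnaJ proteins that handle misfolded clients were among those called. The gene dnajb2 (ENSDARG00000058644), whose human product carries ubiquitin-binding motifs, had 2.59, 5.63 and 3.46 TPM in mutants and 9.34, 12.2 and 18.2 TPM in wild types (log2 fold change -1.54 ± 0.30). For dnajb6a (ENSDARG00000004680), a suppressor of aggregation, the values were 10.6, 27.5 and 15.0 TPM in mutants and 45.0, 30.6 and 51.8 TPM in wild types (log2 fold change -1.29 ± 0.35). Its paralog dnajb6b had 7.42, 7.57 and 7.04 TPM in mutants and 8.83, 6.75 and 8.71 TPM in wild types, with overlap. In dnajb2 and dnajb6a mutant replicate 2 was nearest to the wild types and replicate 1 farthest. The gene dnajc7 (ENSDARG00000058148), a link between Hsp70 and Hsp90, had the smallest change called, with 20.5, 28.2 and 23.9 TPM in mutants and 38.4, 33.1 and 39.8 TPM in wild types (log2 fold change -0.60 ± 0.16, adjusted P 0.0455 in limma).

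The remaining called genes serve organelles or have no settled role. Mitochondrial dnaja3a (ENSDARG00000058494) had 8.44, 15.1 and 11.9 TPM in mutants and 33.4, 23.7 and 25.4 TPM in wild types, whereas its paralog dnaja3b had 19.2, 10.6 and 20.5 TPM in mutants and 8.32, 10.7 and 7.88 TPM in wild types, with overlap. The ER gene dnajb9b (ENSDARG00000016886), a target of the unfolded protein response in mammals, had 0.905, 0.587 and 0.636 TPM in mutants and 1.86, 2.02 and 2.62 TPM in wild types. The low, atypical Hsp70 gene hspa12a (ENSDARG00000070603) had 0.0896, 0.482 and 0.110 TPM in mutants and 2.43, 1.06 and 4.26 TPM in wild types. Fitted log2 fold changes were -1.17 ± 0.23 for dnaja3a, -0.89 ± 0.17 for dnajb9b and -1.46 ± 0.34 for hspa12a. The 3 were separate between genotypes. Every mutant library was below 1 TPM for dnajb9b and hspa12a, which thus passed the filter through the wild types alone and had to differ, so their calls are a description and support nothing here.

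**Figure D4:**
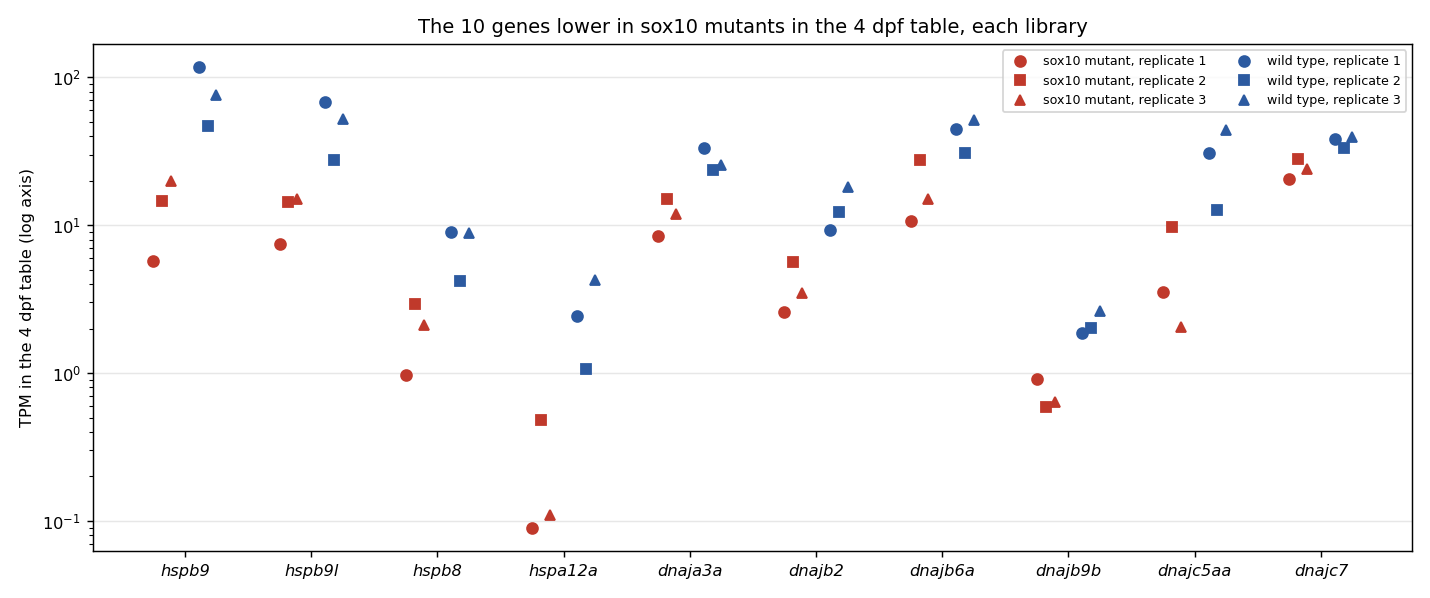
TPM (log axis) in each of the 6 libraries of the 4 dpf table for the 10 genes called lower in sox10 mutants, mutants in red to the left of wild types in blue. The groups are separate for each gene, and for dnajc5aa the highest mutant (9.70 TPM) comes near the lowest wild type (12.7 TPM). All mutant libraries are below 1 TPM for dnajb9b and hspa12a, which were tested because of the wild types alone.

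The abundant chaperones were not called in the 4 dpf table. For hsp90ab1 the values were 496, 813 and 603 TPM in mutants and 1072, 933 and 1108 TPM in wild types, which did not overlap (log2 fold change -0.73 ± 0.23, adjusted P 0.0579 in limma). For muscle hsp90aa1.1 they were 3.75, 12.2 and 10.2 TPM in mutants and 30.1, 10.2 and 20.7 TPM in wild types, with overlap, and for hsp90aa1.2 58.3, 36.4 and 31.5 TPM in mutants and 47.0, 46.0 and 53.9 TPM in wild types. These Hsp90 alpha genes are neighbouring paralogs, and how reads were divided between them is uncertain. Mitochondrial hspa9 had 25.7, 33.1 and 30.2 TPM in mutants and 41.0, 40.4 and 47.4 TPM in wild types, separate as deposited but not called (adjusted P 0.0501 in limma). Its log2 fold change depended on the scaling, at -0.52 as deposited and -0.09 with rescaled libraries (adjusted P 0.607 in limma). Perlecan, hspg2, had 0.418, 1.24 and 0.696 TPM in mutants and 1.68, 1.39 and 2.57 TPM in wild types, also separate and not called.

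The 5 members whose mutant libraries all lay above the wild types were dnajb11, dnajc2, dnajc5gb, dnajc8 and dnajc9, none of them called. The ER gene dnajb11 (ERdj3) had 7.78, 5.13 and 5.64 TPM in mutants and 5.11, 4.03 and 4.42 TPM in wild types of the 4 dpf table. Ribosome-associated dnajc2 had 9.61, 7.32 and 10.5 TPM in mutants and 6.17, 5.95 and 5.54 TPM in wild types, and the histone chaperone gene dnajc9 had 8.40, 7.96 and 8.87 TPM in mutants and 7.57, 5.62 and 5.41 TPM in wild types. Log2 fold changes were 0.37 ± 0.19, 0.55 ± 0.17 and 0.40 ± 0.17 (SE).

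Members below the filter were compared by an exact two-sided permutation test, which cannot give a P below 0.1 with 3 against 3 libraries. Of the 8 at 45 hpf none reached that limit. Of the 10 in the 4 dpf table, dnajb5, dnajc16 and hspa12b reached it, lower in mutants in 3 of 3 libraries each. Reaching it means only that the genotypes did not overlap. Mutants lay wholly below wild types for 42.8% of all genes tested in that table, and the share among genes under the filter was not counted. The gene dnajc16 had 0.153, 0.391 and 0.334 TPM in mutants and 2.00, 0.611 and 3.08 TPM in wild types. The others were dnajb13, dnajc14, dnajc22, dnajc25, hspa12a.2, hspa12a.3 and hspa1b in the 4 dpf table, with means of at most 1.70 TPM in either genotype.

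Genes that work with these chaperones gave the following counts in the 4 dpf table, beside 18.8% of all genes called lower and 1.56% higher. Of the 4 genes tested from the list of heat shock factors and their inhibitor, hsf1, the master regulator of the heat response, was lower, with 1.83, 4.38 and 2.56 TPM in mutants and 8.23, 5.76 and 8.26 TPM in wild types, and the other 3 were not called. Cochaperones of Hsp70 and Hsp90 were lower in 3 of 21 (bag3, grpel2 and the ubiquitin ligase gene stub1), subunits of the cytosolic chaperonin CCT in 4 of 8, proteasome and ubiquitin genes in 5 of 14, and prefoldin subunits in 0 of 6. ER folding and unfolded protein response genes were called lower in 3 of 27 (atf4a, ddit3 and dnajb9b) and higher in 1 (creld2, a secreted ER stress target), of which dnajb9b and creld2 passed the filter only through the genotype where they were high. The pro-apoptotic stress gene ddit3 (Chop) had 6.78, 33.1 and 11.5 TPM in mutants and 52.9, 42.2 and 63.9 TPM in wild types. With rescaled libraries 0 genes of any of these lists were called, beside 0.157% of all genes called lower and 0.0817% higher. In the ER list the direction depended on the scaling, with both signs present as deposited. Its rescaled log2 fold changes were positive except in atf4a, calr3b, ddit3, dnajb9a and dnajb9b (-1.42 to -0.31). The rescaled median of all genes was 0.03. For hspa5 the change was 0.06 as deposited and 0.49 rescaled, and for pdia3 it was 0.39 and 0.83. No heat shock factor, cochaperone, chaperonin, proteasome or ER gene of these lists was called at 45 hpf.

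Markers of cell types were counted in the same comparison, beside 18.8% of all genes called lower as deposited and 0.157% with rescaled libraries. For the 4 dpf table, 5 of 6 pigment genes (with tyr, which passed the filter through the wild types alone), 3 of 3 glial genes and 5 of 5 lens genes were lower in mutants, against 1 of 4 neuronal genes, 0 of 8 muscle genes and 0 of 2 blood genes. With rescaled libraries 1 of 6 pigment genes and 2 of 3 glial genes were still called lower, and 0 of 5 lens genes and 0 of 4 neuronal genes were. Summed pigment genes were at 29.0 to 63.8 TPM in mutants and 114 to 167 TPM in wild types, and glial genes at 68.3 to 71.5 TPM in mutants and 180.4 to 273 TPM in wild types, both wholly lower in mutants, and sox10 mutants are known to lack pigment cells and peripheral glia. The allele leaves transcription of sox10 in place, so sox10 itself, at 5.77 to 8.41 TPM in mutants and 5.25 to 7.33 TPM in wild types, gives no such check. Lens sums were 508 to 1720.5 TPM in mutants and 3126 to 4305 TPM in wild types. Muscle sums were 4180.3, 30102 and 11791 TPM in mutants and 28931, 24411 and 39100.5 TPM in wild types, lowest in mutant replicate 1, the library high in inducible Hsp70. As deposited, that library was also the lowest mutant for hspb2, hspb3, hspb8 and hsp90aa1.1, but not for hspb7. It had the lowest median-of-ratios factor over both tables (0.626), so low values in it are not particular to these genes. No marker of these lists was at 0 in any library, and the part of these cell types in the chaperone values was not tested.

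Stage was compared within each genotype, with both tables in 1 fit. The tables may differ in more than age (the pools were separate, and their preparation and sequencing may have differed), and these cannot be told apart from stage. TPM were set within each library, so levels are compared across separately made tables. In sox10 mutants, 40 of 80 members tested were called lower in the 4 dpf table than at 45 hpf and 13 higher, against 42.9% and 20.7% of all 17403 genes. With rescaled libraries the members split into 32 lower and 20 higher, against 36.4% and 31.2% of all genes. In wild types 35 members were lower and 13 higher, against 37.9% and 25.5% of all genes. The median change in mutants was -0.43 for members and -0.36 for all genes, and in wild types it was -0.36 for members and -0.19 for all genes. The shares of members and of all genes were not tested against each other. The filter of this fit could be met at 1 stage alone, and such genes were not set aside, among members or all genes. Among the members this held for dnajc25, at 1.66 to 4.35 TPM at 45 hpf and at most 0.966 TPM in the 4 dpf table. Its fall was therefore fixed by the filter.

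Chaperones of the secretory pathway were among the largest falls. The ER gene dnajb11 was at 7.78, 5.13 and 5.64 TPM in mutants of the 4 dpf table, against 53.1, 43.6 and 35.6 TPM at 45 hpf, and at 5.11, 4.03 and 4.42 TPM in wild types of the 4 dpf table, against 59.1, 61.5 and 56.2 TPM at 45 hpf. ER Hsp90, hsp90b1 (Grp94), was at 18.4, 22.1 and 21.8 TPM in mutants of the 4 dpf table, against 122, 99.8 and 74.4 TPM at 45 hpf, and at 22.4, 14.7 and 18.4 TPM in wild types, against 121, 155 and 142 TPM. All later libraries lay far below all earlier ones in both genes and both genotypes. Log2 fold changes were -2.65 ± 0.18 (SE) for dnajb11 and -2.17 ± 0.20 for hsp90b1 in mutants, and -3.45 ± 0.18 and -2.86 ± 0.20 in wild types. For hspa5 they were -1.68 ± 0.20 in mutants and -2.34 ± 0.20 in wild types. Other ER members changed less strongly, and not all in that direction. Low dnajb9b was at 1.86 to 2.62 TPM in wild types of the 4 dpf table, against 1.66 to 1.76 TPM at 45 hpf. In mutants its stages overlapped (0.587 to 0.905 TPM, against 0.419 to 1.39 TPM). The gene dnajc3b, an ER cochaperone induced by stress in mammals, was at 3.67 to 4.35 TPM in mutants of the 4 dpf table, against 4.46 to 6.85 TPM at 45 hpf, and was called in wild types, whereas its paralog dnajc3a was called in neither genotype (5.03 to 7.51 TPM in mutants of the 4 dpf table, against 5.57 to 8.91 TPM at 45 hpf). The ER member hspa13 was lower in both genotypes (1.61 to 2.94 TPM in mutants of the 4 dpf table, against 3.86 to 6.92 TPM at 45 hpf).

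Wider lists of folding genes were compared between stages in the same way, beside 42.9% of all genes called lower and 20.7% higher in mutants and 37.9% and 25.5% in wild types. Of 27 ER folding and unfolded protein response genes, members included, 20 were lower and 0 higher in mutants, and 19 lower and 1 higher in wild types, with medians of -1.37 and -1.45 on the log2 scale. All 7 collagen chaperone genes, among them the collagen-specific serpinh1b (Hsp47), were lower in both genotypes, as were all 6 prefoldin genes. CCT subunits were lower in 8 of 8 in mutants and 7 of 8 in wild types, and proteasome and ubiquitin genes in 12 of 14 in mutants and 10 of 14 in wild types, where the autophagy receptor gene sqstm1 was higher in both genotypes (log2 fold change 2.35 in mutants and 3.00 in wild types). Cochaperones of Hsp70 and Hsp90 were lower in 15 of 22 and higher in 1 in mutants, and lower in 13 and higher in 2 in wild types, with fkbp5 higher in both (3.13 in mutants). Lists with calls both ways were mitochondrial protein folding, with 6 of 12 lower and 2 higher in mutants (clpxa and dnaja3b) and 5 lower and 2 higher in wild types, and heat shock factors and their inhibitor, with 2 of 4 lower and 1 higher in mutants (hsf2, 1.38) and 1 lower and 1 higher in wild types.

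Among the other large falls was dnajc21. This gene, whose product matures the large ribosomal subunit, was at 1.28, 1.83 and 2.09 TPM in mutants of the 4 dpf table, against 10.7, 10.2 and 6.91 TPM at 45 hpf, and its log2 fold change was -1.90 ± 0.19 (SE) in mutants and -2.21 ± 0.19 in wild types. For dnajc9 the change in wild types was -2.01 ± 0.15, with 5.41 to 7.57 TPM in the 4 dpf table and 26.4 to 29.3 TPM at 45 hpf. Hsp110 genes hspa4a and hspa4b were lower in both genotypes, at log2 fold changes of -1.85 and -1.82 in mutants and -2.25 and -1.82 in wild types. In contrast their relative hspa4l rose, to 18.1, 16.4 and 18.3 TPM in mutants of the 4 dpf table, against 10.7, 7.43 and 6.01 TPM at 45 hpf, and so did hsph1, to 5.78, 3.06 and 5.25 TPM, against 1.46, 1.80 and 1.57 TPM. Thus genes of the same Hsp110 family moved in both directions, and without overlap between stages.

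Cytosolic and mitochondrial members followed. The gene hsp90ab1 was at 496 to 813 TPM in mutants of the 4 dpf table, against 1362 to 1728 TPM at 45 hpf (log2 fold change -1.35 ± 0.20), and at 933 to 1108 TPM in wild types, against 1619 to 1956 TPM (-0.82 ± 0.20). The gene dnaja1, a cytosolic partner of Hsp70, was at 2.45 to 5.18 TPM in mutants of the 4 dpf table, against 13.8 to 31.0 TPM at 45 hpf, and dnajb1b was at 2.42 to 4.75 TPM, against 9.10 to 15.8 TPM. Levels of hspd1 were 17.2 to 20.7 TPM in wild types of the 4 dpf table and 74.6 to 88.7 TPM at 45 hpf, a log2 fold change of -2.05 ± 0.20. Inducible hsp70.3 also fell in wild types, to 1.60 to 1.74 TPM in the 4 dpf table, against 7.11 to 15.4 TPM at 45 hpf (-2.07 ± 0.64). Members with little stage difference included hspa9, at 40.4 to 47.4 TPM in wild types of the 4 dpf table and 43.5 to 54.9 TPM at 45 hpf. Also called lower in wild types, the ribosome-associated Hsp70 gene hspa14 was at 6.62 to 8.24 TPM in wild types of the 4 dpf table, against 20.7 to 23.8 TPM at 45 hpf, while the low hspa8 copy hspa8b was at 1.76 to 2.55 TPM, against 3.31 to 4.06 TPM.

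Small Hsps led the rises. The gene hspb15 was at 24.4, 23.6 and 28.4 TPM in mutants of the 4 dpf table, against 1.75, 1.68 and 1.36 TPM at 45 hpf, and at 30.6, 24.7 and 23.6 TPM in wild types, against 1.22, 1.86 and 1.63 TPM. Its log2 fold change was 3.35 ± 0.16 (SE) in mutants and 3.41 ± 0.16 in wild types, which differ by less than either SE. The gene hspb9l was at 7.49, 14.3 and 15.1 TPM in mutants of the 4 dpf table, against 1.82, 1.92 and 0.764 TPM at 45 hpf, and at 68.3, 27.6 and 52.4 TPM in wild types, against 1.57, 2.08 and 1.64 TPM. Its change was 2.39 ± 0.33 in mutants and 4.10 ± 0.33 in wild types. For hspb6 the changes were 1.92 ± 0.34 and 2.24 ± 0.34. The gene hspb9 was called higher in wild types (3.601 ± 0.74, and 2.65 without the low wild-type replicate 1 of 45 hpf) and not in mutants (0.17 ± 0.74), whose 45 hpf and 4 dpf values overlapped. In the opposite direction hspb1 was lower in both genotypes, at 9.77 to 13.4 TPM in mutants of the 4 dpf table, against 15.2 to 22.5 TPM at 45 hpf, a change that was not called in mutants with rescaled libraries. Over the family, 3 of 9 tested small Hsps rose and 1 fell in mutants, and 4 rose and 1 fell in wild types, beside 20.7% of all genes called higher and 42.9% lower in mutants and 25.5% and 37.9% in wild types.

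**Figure D5:**
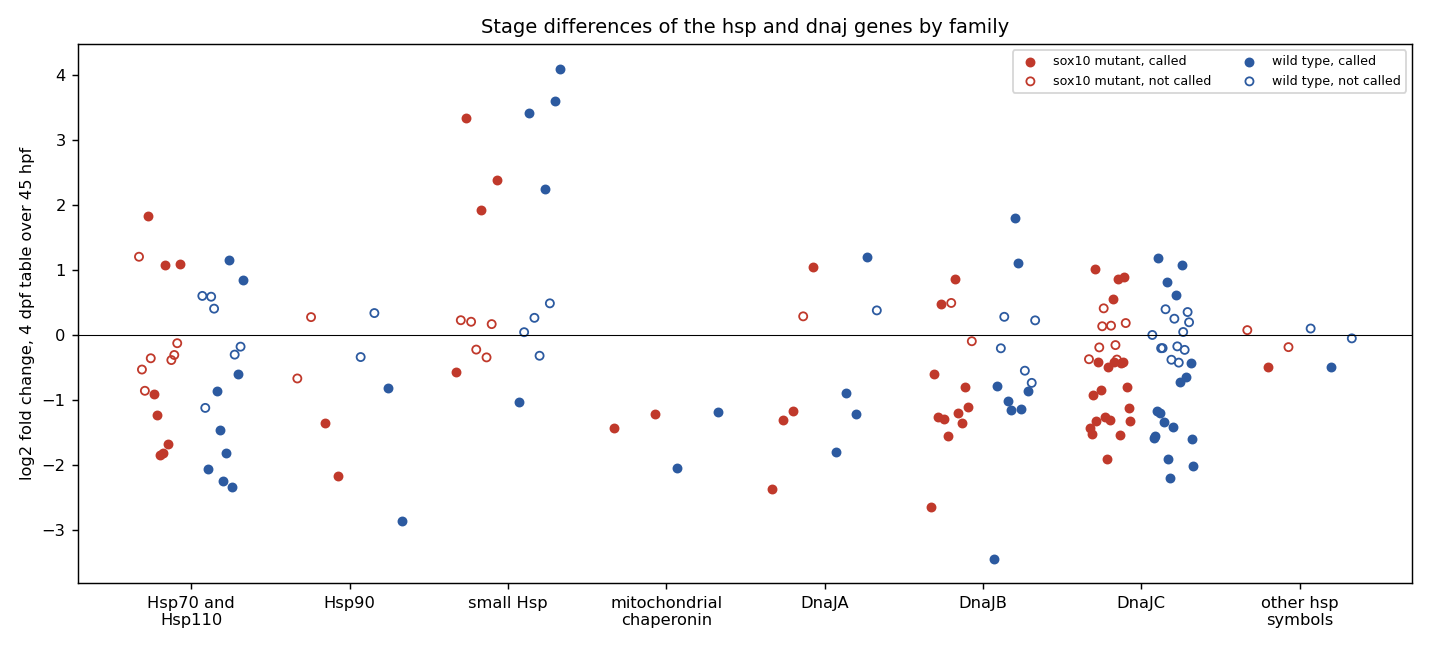
Log2 fold change of the 4 dpf table over 45 hpf for each tested hsp or dnaj gene, by family, with sox10 mutants in red to the left of wild types in blue and filled points for genes called by limma. The largest rises are small Hsps (up to 3.35 in mutants and 4.10 in wild types) and the largest falls are dnajb11, at -2.65 in mutants and -3.45 in wild types.

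Several DnaJ genes also rose. The gene dnajc12, whose human product assists folding of the aromatic amino acid hydroxylases, was at 11.2, 8.77 and 9.75 TPM in mutants of the 4 dpf table, against 4.44, 5.05 and 3.63 TPM at 45 hpf (log2 fold change 1.02 ± 0.18, and 1.19 ± 0.18 in wild types). In wild types dnajb2 and dnaja3a also rose, by 1.80 and 1.21 on the log2 scale. In mutants dnaja3b and dnajc5gb, a gamma-type cysteine string protein gene, rose by 1.05 and 0.89. The gene hsp70l was called higher in mutants of the 4 dpf table (1.83 ± 0.72, adjusted P 0.0418 in limma), but its stages overlapped, and without mutant replicate 1 of the 4 dpf table the change was 0.73 with an adjusted P of 0.152. Its limma adjusted P was also above the threshold without mutant replicate 1 (0.0866), mutant replicate 3 (0.129) or wild-type replicate 3 (0.0520) of 45 hpf, and with no filter (0.0665).

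Whether the genotype difference itself changed between the tables was tested as an interaction in limma. No member was called, against 0.121% of 17403 genes called lower and 0.144% called higher, and 5 members lower and 8 higher had an unadjusted P below 0.05, against 9.06% and 5.99% of all genes. With rescaled libraries 1 member was called, hsp90b1, whose interaction was 0.88 on the log2 scale at an adjusted P of 0.0383, and 0.127% of all genes were called lower and 0.236% higher. As deposited, the estimate for hsp90b1 was 0.68 ± 0.28 (SE), with mutants averaging lower than wild types at 45 hpf and slightly higher in the 4 dpf table. The smallest P values were those of hspb9l (-1.71 ± 0.47, adjusted P 0.147), dnajb2 (-1.31 ± 0.40, adjusted P 0.176) and hspb9 (-3.43 ± 1.04, adjusted P 0.177), in each of which mutants stood lower relative to wild types in the 4 dpf table than at 45 hpf. Without the low wild-type replicate 1 of 45 hpf, the hspb9 estimate was -2.48 with an adjusted P of 0.307 in limma. So the small Hsp and dnajb2 differences seen there are not shown to differ from those at 45 hpf.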

How the data were processed

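Whole-body RNAseq libraries came from 3 pools per genotype and stage. According to the sample records the authors used Trimmomatic 0.39, kallisto (version not given in the sources used here) and the GRCz11 build, and they deposited TPM per gene and library, with no scaling between libraries stated and no counts. Summed TPM of the listed genes were 934603 to 953131. Of 18 labelled libraries 12 hold distinct values. The 315 lines that repeat a gene were merged. Symbols were read from the tables, and the members and lists were chosen with earlier results of these data known.

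Genes were tested where 3 or more of 6 libraries (6 or more of 12 in fits of both tables) reached 1 TPM, on log2(TPM + 1) by limma 3.58.1 in R 4.3.3 (lmFit, eBayes with trend) with genotype as the only factor, or with 4 groups and contrasts for stage and the interaction. P values were adjusted by Benjamini-Hochberg over all genes tested, and a call needed an adjusted P of 0.05 or less with a difference of 1.25-fold or more. The pipeline was tested on simulated data. Fold changes of low genes are understated by the pseudocount of 1. The pools were separate, so P values measure the spread between pools of larvae. The precision rests on 3 libraries per group, since counting error cannot be derived from TPM.

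Genes named with values were called members in the genotype comparisons, the 8 largest non-overlapping rises and falls by stage, a fixed list of well-known chaperones, and the 10 members of greatest spread. Genes given outside this rule were chosen after their values were seen: those with separate groups that were not called, the lowest P values, paralogs of named genes and the genes under the filter. Other settings tried were rescaling of libraries by median-of-ratios factors, quantile normalization, a smaller pseudocount (0.1), dropping the filter, keeping genes that average 5 TPM or more, a block for the replicate number, and omission of single libraries. Promoter and protein sequences were not used here. Gene order came from a RefSeq table (GRCz12tu). The remaining steps ran in Python 3.11.15 (pandas 2.3.3, numpy 2.4.6, scipy 1.17.1) with plots by matplotlib 3.10.9.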

Additional observations from a re-analysis of the deposited data

Results flagged for a closer look

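The ER cochaperone gene dnajb11 stood below all wild types in sox10 mutants at 45 hpf and above all of them in mutants of the 4 dpf table, the only one of the 89 genes to do so. Of all genes tested, 23.7% lay wholly below wild types at 45 hpf and 5.96% wholly above them in the 4 dpf table. The share of all genes that did both was not counted, so this is no trait particular to the members. At 45 hpf it had 53.1, 43.6 and 35.6 TPM in mutants and 59.1, 61.5 and 56.2 TPM in wild types, and in the 4 dpf table it had 7.78, 5.13 and 5.64 TPM in mutants and 5.11, 4.03 and 4.42 TPM in wild types. The interaction was 0.79 on the log2 scale (0.25 SE) with an adjusted P of 0.186 in limma, so the difference between the tables did not pass the threshold.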

How the results depend on the processing

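In the 4 dpf table the 10 calls became 0 with a pseudocount of 0.1, with no filter, with median-of-ratios rescaling and with the replicate block, and 5 with a mean of at least 5 TPM, while leaving out a single library gave 0 to 26. At 45 hpf the count of 0 became 1 with the replicate block and 0 to 25 with a library left out. In the interaction it became 1 with rescaling, 3 with quantile normalization and 0 to 1 with a library left out. Stage counts stayed within 1.5 times of 48 in wild types and 53 in mutants under each alternative. All these counts take lower and higher members together, and the share of all genes called is not given beside them. They show how far the calls depend on the setting and are no result about the members. With a library of the 4 dpf table left out, the log2 fold change of sox10 mutants over wild types ranged from -0.199 to 1.22 for hsp70.1 and from -0.0923 to 1.24 for hsp70.2, lowest without mutant replicate 1. For hspb9 at 45 hpf it ranged from -0.0631, without wild-type replicate 1, to 1.46. Same-numbered libraries did not deviate together (correlations of -0.31, -0.26 and -0.01 at 45 hpf and -0.15, -0.61 and -0.38 in the 4 dpf table). With 3 libraries per group these correlations cannot show whether same-numbered pools were collected together. The labels state no pairing, and the block calls are given here only. Where no value shows it, the cause of a lost call was not tested. Depth behind TPM is unknown, so low genes such as hspa12a cannot be given a counting error.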
